A study of Mus musculus with 23 samples.

Results

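Hemidesmosomes are the junctions that fasten the base of an epithelial cell to the sheet of matrix beneath it. The set described here holds 9 genes, chosen by name out of 54347 in the deposited table: Itga6, Itgb4, Col17a1, Dst, Plec, Lama3, Lamb3, Lama5 and Frem2. RNA was sequenced from 23 libraries of cells of the labial cervical loop, the epithelial fold at the growing end of the mouse lower incisor, at postnatal day 2. All mice carried the Sox2-GFP reporter, in which green fluorescent protein follows the endogenous promoter of Sox2, and dissociated cells were sorted by it into Sox2-positive cells, called dental epithelial stem cells in the labels, and Sox2-negative cells. The comparison asks which genes set the Sox2-positive cells apart. The labels give 2 batches, each a separate day with its own mice. Batch A gave 6 libraries of each population, and batch B gave 4 of Sox2-negative and 7 of Sox2-positive cells. The Sox2-negative gate takes the remaining cells of the region, so the contrast is with a mixture. Sox2-positive libraries also held markers of cell types other than epithelium, as given below. The labels do not say whether libraries of a batch came from different mice, so p-values measure the spread between libraries, which may be technical.

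In a hemidesmosome, integrin alpha 6 (Itga6) pairs with integrin beta 4 (Itgb4) to bind laminin outside the cell. The transmembrane collagen XVII (Col17a1) stands beside this pair, and the plakins dystonin (Dst, the gene of BPAG1) and plectin (Plec) tie both to keratin filaments inside. The ligand is laminin-332, whose alpha and beta chains are encoded by Lama3 and Lamb3, while Lama5 encodes the alpha chain of laminins that run through most epithelial basement membranes. Frem2 belongs to the Fraser complex, which holds embryonic epithelium to mesenchyme below the basement membrane. Dental epithelium of the cervical loop rests on such a membrane, which parts it from dental mesenchyme. Gene-level values pool the epithelial isoforms of Dst and Plec with those of neurons and muscle, and the forms of Lama3.

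Total estimated counts ranged from 2305778 to 9541443 per library, so 3 counts, the floor used here, corresponded to 0.357 to 1.3 CPM, the unit used here for levels (reads of a gene relative to the whole library, after TMM scaling of the totals). In Sox2-positive libraries Sox2 itself ranged from 2.55 to 12.9 CPM (batch A) and from 13.3 to 20.3 CPM (batch B); it reached at most 1.14 CPM in a Sox2-negative library. The summed level of 8 epithelial markers was 3977 to 4388 CPM (batch A) and 3905 to 6479 CPM (batch B) in Sox2-positive libraries, and 202 to 311 and 406 to 504 CPM in the Sox2-negative ones. The Sox2-negative libraries held 8 mesenchymal markers at 10600 to 13658 CPM, together with endothelial markers (1120 to 1473 CPM in batch A, 306 to 414 in batch B) and leukocyte markers (medians of 819 and 260 CPM). Markers of ameloblasts, the enamel-forming epithelial cells, summed to 747 to 940 and 594 to 712 CPM in Sox2-negative libraries, and to 289 to 350 and 6.87 to 10.2 CPM in Sox2-positive libraries. The Sox2-positive libraries also held mesenchymal markers (1357 to 1922 CPM in batch A, 701 to 816 in batch B). In batch A they held 8 glial markers at 1066 to 1368 CPM, and in batch B 8 skeletal muscle markers at 223 to 418 CPM, against 55.8 to 92.9 and 1.91 to 10.4 CPM in the other batch. The 6 markers of pericytes and smooth muscle summed to 62.5 to 99.2 CPM (batch A) and 269 to 311 CPM (batch B) in Sox2-positive libraries. In Sox2-negative libraries they summed to 533 to 873 and 422 to 467 CPM. In bulk RNA, fewer cells of a type and less RNA per cell cannot be told apart. Earlier results of these data set apart the batch B libraries numbered 1 and 2, so values without them are given where they change a result.

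RefSeq tables of build GRCm38.p6 held the sequence before the transcription start of 5 of the 9 genes. It is shown for Col17a1, which differed greatly between the populations, and for Lama5 and Frem2, whose population difference itself differed between the batches. Both strands were searched for 6 motifs, and capitals mark every match. Over all 27025 promoter stretches of 250 bases, the TATA box TATAAA was present in 13% and the GC box GGGCGG in 33%. The AP-1 motif TGANTCA was present in 6.85%. For the SOX cores, ACAAAG was present in 16.5%, and the share with ACAATG was 10.9%. The p53 family site was present in 7.16%. The Col17a1 sequence lies at chr19:47692095-47692292 (minus strand, 198 bases, ending just before the first annotated exon), that of Lama5 at chr2:180225860-180226109 (minus strand, 250 bases) and that of Frem2 at chr3:53657356-53657605 (minus strand, 250 bases).
Col17a1: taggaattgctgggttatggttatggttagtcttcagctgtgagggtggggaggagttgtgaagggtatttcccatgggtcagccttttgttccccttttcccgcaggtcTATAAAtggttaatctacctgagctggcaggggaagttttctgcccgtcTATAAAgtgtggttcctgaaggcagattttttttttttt
Lama5: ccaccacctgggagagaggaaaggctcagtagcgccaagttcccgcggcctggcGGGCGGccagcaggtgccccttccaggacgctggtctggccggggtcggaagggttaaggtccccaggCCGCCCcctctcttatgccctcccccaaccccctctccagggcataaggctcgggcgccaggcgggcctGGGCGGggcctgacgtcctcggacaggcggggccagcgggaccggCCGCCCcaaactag
Frem2: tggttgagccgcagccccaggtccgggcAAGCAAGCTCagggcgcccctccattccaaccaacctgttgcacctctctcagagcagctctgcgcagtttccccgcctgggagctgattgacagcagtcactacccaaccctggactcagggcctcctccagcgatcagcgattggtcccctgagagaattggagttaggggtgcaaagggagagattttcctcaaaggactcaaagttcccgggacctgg
The Col17a1 stretch held 2 copies of TATAAA, 2 CpG dinucleotides and 45.5% G and C. The Lama5 stretch held 4 GC boxes, 19 CpG dinucleotides and 72.4% G and C, against a median of 52% over all promoters. The Frem2 stretch held 1 match to the short pattern searched for as p53 family site (the letters AAGCAAGCTC alone), 8 CpG dinucleotides and 59.6% G and C. Stretches of Lamb3 and Dst, each before 1 of 2 starts, were searched too but are not shown. That of Lamb3 held no match to any of the 6 motifs, though its log2 fold change over both batches was larger than that of Col17a1 (3.97 against 3.35). That of Dst held 4 GC boxes and 1 match to ACAAAG. These are matches of letters, not sites shown to be bound.

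All 9 genes passed the filter on low counts. Over both batches 8 of the 9 were higher in Sox2-positive cells at an adjusted p under 0.05, none was lower, and Plec was not called (edgeR quasi-likelihood test with batch as a covariate). The background is wide: of all 17190 genes tested, 57.5% were called, 24.9% as higher and 32.5% as lower. The median log2 fold change of the 9 genes was 1.84, against -0.12 over all genes tested. In batch A 7 of 9 were called higher (43.4% of all genes called, 19.3% higher, 24.2% lower), and in batch B 8 of 9 (54.7% called, 27.1% higher, 27.6% lower). Every Sox2-positive library lay above every Sox2-negative library of the same batch for 6 of 9 genes in batch A and 8 of 9 in batch B, against 12.4% and 17.4% of all genes tested. The reverse order held for 0 of 9 in each, against 15.7% and 20.7%. Without batch B libraries 1 and 2, 8 of 9 were again called higher over both batches and in batch B. The epithelial and mesenchymal marker sums differed between the populations by the ranges given above. Glial sums differed in batch A (1066 to 1368 CPM in Sox2-positive and 28.1 to 75.2 CPM in Sox2-negative libraries). In batch B the glial sums overlapped (55.8 to 92.9 and 43.3 to 65.8 CPM). The part of these markers' cell types in the values of the 9 genes was not tested.

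**Figure D1:**
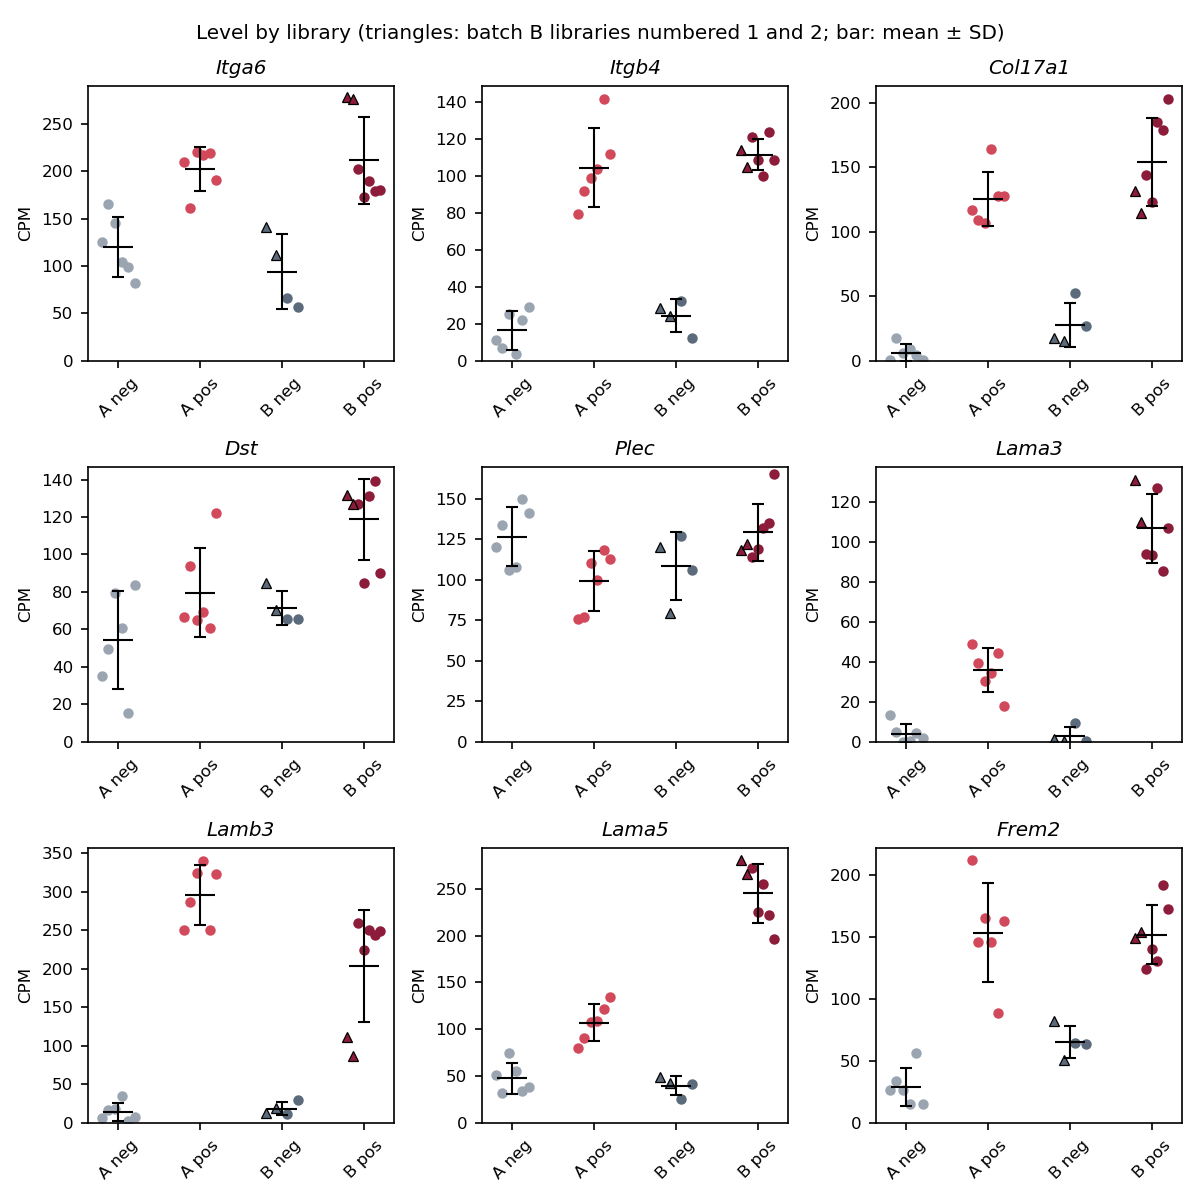
Level of each gene in CPM (vertical axis, starting at 0) in each of the 23 libraries, for batch A and B Sox2-negative (A neg, B neg) and Sox2-positive (A pos, B pos) cells, with mean and SD. Triangles are batch B libraries numbered 1 and 2; Plec overlaps between the populations in both batches, while Lama3 is highest in batch B Sox2-positive libraries, at 85.6 to 131 CPM.

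Among the receptors, Itgb4 separated the populations more than its partner Itga6. Itgb4 (ENSMUSG00000020758.15; mm10, chromosome 11, 115974709 to 116008412, plus strand), the subunit that pairs only with alpha 6, ranged from 3.91 to 29.3 CPM in batch A Sox2-negative libraries (median 16.5) and from 79.4 to 142 CPM in Sox2-positive libraries (median 101). In batch B the Sox2-negative libraries had 28.5, 24.4, 32.6 and 12.3 CPM, and the Sox2-positive libraries 100 to 124 CPM (median 109). The groups did not overlap in either batch, and the Sox2-positive levels of the batches overlapped. The log2 fold change over both batches was 2.44 (SE 0.24, edgeR adjusted p 2.9e-09).

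Itga6 (ENSMUSG00000027111.16; chromosome 2, 71745616 to 71858416, plus strand) encodes the alpha 6 subunit, which also pairs with integrin beta 1 in many cell types outside epithelium. It ranged from 82.3 to 166 CPM in batch A Sox2-negative libraries (median 115) and from 161 to 220 CPM in Sox2-positive libraries (median 214), so the groups overlapped. Batch B Sox2-negative libraries 1 to 4 had 141, 112, 66.4 and 57.0 CPM, and the Sox2-positive libraries 173 to 279 CPM (median 190). The libraries numbered 1 and 2 were the highest of both batch B populations, at 279 and 277 CPM in Sox2-positive cells. The log2 fold change over both batches was 0.94 (SE 0.15, edgeR adjusted p 9.04e-06).

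Col17a1 (ENSMUSG00000025064.15; chromosome 19, 47646344 to 47692094, minus strand), the transmembrane collagen, was near the floor in part of the Sox2-negative libraries. In batch A these ranged from 0.243 to 17.5 CPM (median 5.13), with at most 3 counts in 2 of the 6, against 107 to 164 CPM (median 123) in Sox2-positive libraries. The Sox2-negative libraries of batch B had 17.3, 15.2, 52.4 and 27.3 CPM and its Sox2-positive libraries 115 to 203 CPM (median 144). The groups were apart in both batches, with log2 fold changes of 4.30 (SE 0.56) in batch A and 2.53 (SE 0.31) in batch B, and 3.35 over both (SE 0.39, edgeR adjusted p 3.72e-08). The interaction of population and batch was not called (log2 interaction -1.82, SE 0.60, edgeR adjusted p 0.067). Leaving out batch A Sox2-negative library 2, which had the 17.5 CPM, took the interaction to -2.46 and past the threshold (edgeR adjusted p 0.00501), and without a filter on low counts it also passed (-1.83, adjusted p 0.0022). Over every setting run, its adjusted p went from 0.0022 to 0.219.

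The plakins differed little. Dst (ENSMUSG00000026131.20; chromosome 1, 33908225 to 34308661, plus strand), whose epithelial product BPAG1e anchors keratin, ranged from 15.6 to 83.7 CPM (median 55.2) in batch A Sox2-negative and from 60.9 to 122 CPM (median 68) in Sox2-positive libraries, which overlapped. In batch B the Sox2-negative libraries had 84.7, 70.1, 65.3 and 65.8 CPM, all below the 85.0 to 139 CPM (median 127) of the Sox2-positive libraries. Dst was called over both batches (log2 fold change 0.64, SE 0.20, edgeR adjusted p 0.00698) and in batch B (0.80, SE 0.16), but not in batch A (0.57, SE 0.33, edgeR adjusted p 0.18). A difference between the batches was not called for it (log2 interaction 0.17, SE 0.39, edgeR adjusted p 0.878).

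Plec (ENSMUSG00000022565.15; chromosome 15, 76170974 to 76232574, minus strand), the plectin gene, ranged from 106 to 150 CPM (median 127) in batch A Sox2-negative and from 75.5 to 118 CPM (median 105) in Sox2-positive libraries. Those of batch B had 120, 79.5, 127 and 106 CPM in Sox2-negative cells and 114 to 165 CPM (median 122) in Sox2-positive cells. The groups overlapped in both batches. Its log2 fold change was -0.08 over both batches (SE 0.13, edgeR adjusted p 0.598), -0.35 in batch A (SE 0.16, adjusted p 0.0798) and 0.33 in batch B (SE 0.15, adjusted p 0.0739), and the sign over both batches turned with total-count scaling (0.04, adjusted p 0.818, within a range of 0.393 to 0.992 over the alternatives and left-out libraries). In batch B it was called higher with total-count scaling (0.40, adjusted p 0.0362) and without Sox2-negative library 3 (0.43, adjusted p 0.0319), with adjusted p between 0.0319 and 0.345 over every setting run. Its interaction was 0.62 (SE 0.22, adjusted p 0.088), and DESeq2 called it (0.65, adjusted p 0.0382, within 0.0382 to 0.341 over the settings). Exons of Plec share 205 bases with Parp10 on the same strand, which reached 61.5 CPM, so its counts are uncertain to that extent.

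**Figure D2:**
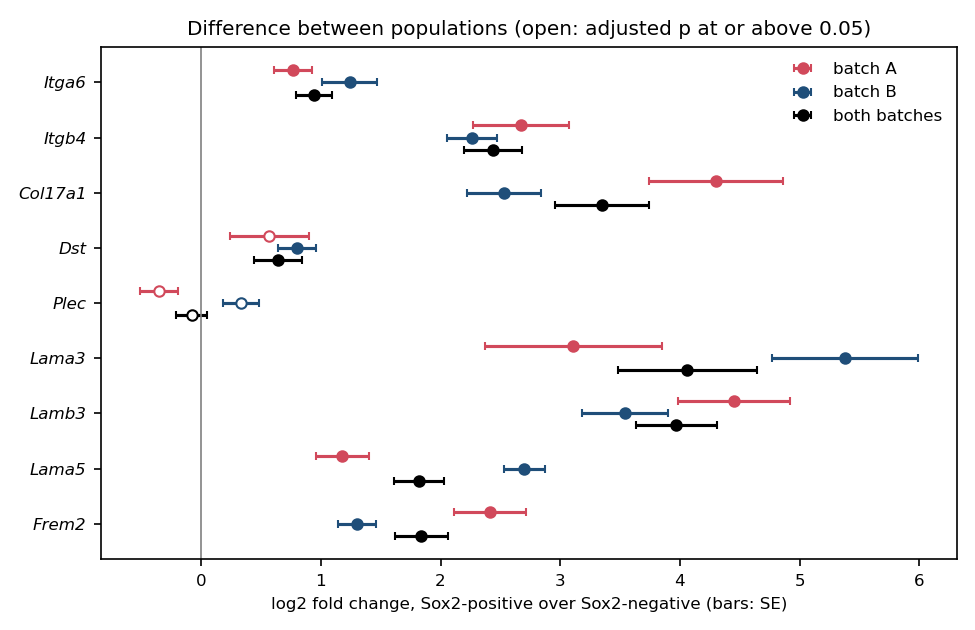
Log2 fold change of each gene between Sox2-positive and Sox2-negative cells (horizontal axis), with SE, in batch A, in batch B and over both. Filled points passed an adjusted p of 0.05; Plec is the gene with no filled point, and Lama3 and Lamb3 have the largest values over both batches, 4.06 and 3.97.

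Of the 9 genes, the laminin-332 chain genes Lama3 and Lamb3 had the largest log2 fold changes over both batches. Lamb3 (ENSMUSG00000026639.18; chromosome 1, 193207699 to 193343878, plus strand), the beta 3 chain, ranged from 1.78 to 34.5 CPM (median 11.4) in batch A Sox2-negative and from 250 to 340 CPM (median 305) in Sox2-positive libraries. Batch B Sox2-negative libraries had 13.2, 19.0, 11.7 and 29.7 CPM. The batch B Sox2-positive libraries numbered 1 and 2 had 112 and 86.6 CPM, and the other 5 had 225 to 259 CPM. These 2 stood below the rest, yet above every Sox2-negative library. Their summed epithelial markers were lower too, at 4044 and 3905 CPM against 5940 to 6479 CPM in the other 5. Over both batches the log2 fold change of Lamb3 was 3.97 (SE 0.34, edgeR adjusted p 1.68e-10). Without the batch B libraries numbered 1 and 2 it was 4.19 (adjusted p 2.14e-09, within a range of 4.84e-30 to 9.35e-07 over the alternatives).

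Lama3 (ENSMUSG00000024421.16; chromosome 18, plus strand), the alpha 3 chain, ranged from 0 to 13.2 CPM (median 3.12) in batch A Sox2-negative and from 17.8 to 49.2 CPM (median 36.8) in Sox2-positive libraries. For batch B, the Sox2-negative libraries had 1.23, 0.271, 9.33 and 0.195 CPM and the Sox2-positive libraries 85.6 to 131 CPM (median 107). Sox2-negative libraries thus lay below every Sox2-positive library of their batch, and 2 of 6 in batch A and 2 of 4 in batch B held at most 3 counts. The log2 fold change over both batches was 4.06 (SE 0.58, edgeR adjusted p 1.28e-06). It was 3.11 (SE 0.74) in batch A and 5.38 (SE 0.61) in batch B, where leaving out Sox2-negative library 3, the one at 9.33 CPM, took it to 7.49. The interaction was not called (log2 2.20, SE 0.94, edgeR adjusted p 0.177), but was called without that library (4.32, adjusted p 0.00451) and with no filter on low counts (2.18, adjusted p 0.0255); over the other settings its adjusted p was at most 0.683.

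Lama5 (ENSMUSG00000015647.9; chromosome 2, 180176373 to 180225859, minus strand), the alpha 5 chain, was present in every group. It ranged from 31.6 to 74.6 CPM (median 44.9) in batch A Sox2-negative and from 79.4 to 134 CPM (median 109) in Sox2-positive libraries. In batch B the Sox2-negative libraries had 48.9, 42.7, 25.8 and 41.7 CPM and the Sox2-positive libraries 196 to 281 CPM (median 255). Sox2-positive libraries lay above Sox2-negative ones in both batches, and those of batch B above all of batch A. The log2 fold change was 1.82 over both batches (SE 0.21, edgeR adjusted p 5.36e-08), 1.18 in batch A (SE 0.22) and 2.70 in batch B (SE 0.17). The difference between these was called (log2 interaction 1.45, SE 0.28, edgeR adjusted p 0.00155), and remained so in each of 23 fits that left out 1 library (1.27 to 1.56).

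Frem2 (ENSMUSG00000037016.11; chromosome 3, 53513938 to 53657355, minus strand), of the Fraser complex, ranged from 14.8 to 56.2 CPM (median 26.4) in batch A Sox2-negative and from 88.5 to 212 CPM (median 155) in Sox2-positive libraries. In batch B the Sox2-negative libraries had 81.9, 50.7, 64.5 and 63.3 CPM and the Sox2-positive libraries 124 to 192 CPM (median 149). The ranges of the batches overlapped in both populations, and the Sox2-negative median was higher in batch B (63.9 against 26.4 CPM). The log2 fold change was 1.84 over both batches (SE 0.22, edgeR adjusted p 6.86e-08), 2.41 in batch A (SE 0.30) and 1.30 in batch B (SE 0.16). The difference between the batches was called (log2 interaction -1.18, SE 0.35, edgeR adjusted p 0.0389), but was lost in 17 of 23 fits that left out 1 library (adjusted p up to 0.0991). It held without batch A Sox2-negative 2 or 5, Sox2-positive 5, batch B Sox2-negative 2 or Sox2-positive 6 or 7. It was also lost without batch B libraries 1 and 2 (-1.16, adjusted p 0.19) and with a replicate block (-1.35, adjusted p 0.135), while every setting run kept the sign (adjusted p 0.00226 to 0.19).

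Between the batches, 7.04% of all genes tested had a called interaction, against 2 of these 9: Lama5 (2.82% of all genes called higher) and Frem2 (4.22% called lower). Within Sox2-positive cells, Lama5 was the 1 gene of the 9 that was called, higher in batch B (log2 difference 1.19, SE 0.18, edgeR adjusted p 4.24e-05; 10.4% of all genes called, 4.85% higher and 5.54% lower). Lama3 had a larger but less precise difference (1.57, SE 0.56, adjusted p 0.0737). Its call changed with 1 library: it passed without batch A Sox2-negative 1, 3 or 4 (adjusted p 0.0449, 0.0409 and 0.0495) or batch B Sox2-negative 3 (0.0207). Without a filter on low counts it passed too (1.59, adjusted p 0.00214; at most 0.175 over the settings run). Within Sox2-negative cells, Col17a1 (2.11, SE 0.47, edgeR adjusted p 0.00369) and Frem2 (1.16, SE 0.27, adjusted p 0.00447) were higher in batch B, where 11.2% of all genes were called, 5.85% as higher and 5.35% as lower. Frem2 lost that call without batch B libraries 1 and 2 (1.14, adjusted p 0.0639, otherwise at most 0.0223), and Itga6 was then called lower in batch B (-0.96, adjusted p 0.0106), where it had been -0.35 (adjusted p 0.34, and up to 0.734 over the settings). Lama3 was called lower within these cells without batch B Sox2-negative library 3 (-2.73, adjusted p 0.0335), from -0.63 (adjusted p 0.66, up to 0.946 over the settings). The summed epithelial markers of Sox2-negative cells were also higher in batch B, by the ranges given above, while 8 of 8 endothelial markers (log2 differences from -3.35 to -1.40) and 5 of 8 leukocyte markers (median of the 8 -1.56) were called lower. The part of these cell types in the values of the 9 genes was not tested. Within Sox2-positive cells the 8 glial markers were all lower and 6 of 8 skeletal muscle markers higher in batch B. The 4 ameloblast markers tested were also all lower there (median log2 difference -5.57), as were 4 of 8 mesenchymal markers (median of the 8 -0.29). Called higher there were 2 of 8 epithelial markers (median of the 8 0.53) and 2 of 5 tested pericyte and smooth muscle markers (median 0.81). The part of all these cell types in the Lama5 value was not tested. Day and mice cannot be told apart in a batch.

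The ratio of 2 genes within a library does not depend on the scaling. The log2 ratio of Itgb4 to Itga6 counts averaged -0.97 ± 0.29 (SD, n = 6) in batch A Sox2-positive libraries, against -3.13 ± 1.29 (n = 6) in the Sox2-negative ones (p 0.00216 by two-sided exact permutation, 0.0216 after adjustment over 10 tests). In batch B it averaged -0.90 ± 0.33 (n = 7) for Sox2-positive against -1.93 ± 0.61 (n = 4) for Sox2-negative cells (p 0.0182 by exact permutation, 0.0455 after adjustment). Counts of the 2 integrin partners were therefore more nearly equal in Sox2-positive libraries of both batches. The batch B result was lost without any of 8 of its 11 libraries (adjusted p up to 0.1), while that of batch A held without any 1 of 12. The log2 ratio of Lama5 to Lama3 was lower in Sox2-positive libraries, at 1.62 ± 0.74 against 4.47 ± 2.56 in batch A and 1.20 ± 0.23 against 5.04 ± 2.50 in batch B (exact permutation, adjusted p 0.0433 in each). Since 2 of 6 and 2 of 4 Sox2-negative libraries held at most 3 counts of Lama3, the size of these ratios depends on the 1 count added and is no measured value. With 0.5 or 5 counts added, the difference was -3.13 or -2.02 in batch A and -4.01 or -3.03 in batch B. Both Lama5 to Lama3 results were lost in part of the tests that left out 1 library, 9 of 12 and 6 of 11 (exact permutation, adjusted p up to 0.0649 and 0.0833). Lamb3 to Lama3 averaged 3.10 ± 0.67 (batch A) and 0.84 ± 0.78 (batch B) in Sox2-positive libraries, which do not overlap (2.35 to 4.17 and -0.34 to 1.51). Its difference between the populations, which rests on the same low counts of Lama3, did not pass (exact permutation, adjusted p 0.565 and 0.0606), nor did those of Col17a1 to Itgb4 (0.0989 and 0.431) or Plec to Dst (0.0606 and 0.114). Without batch B Sox2-negative library 3 Lamb3 to Lama3 passed in batch B (exact permutation, adjusted p 0.0333). Plec to Dst passed without batch A Sox2-negative library 3 or, in batch B, without Sox2-positive library 7 (adjusted p 0.0455 and 0.0476).

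To compare genes with each other, CPM was divided by the length of all annotated exons joined, in kilobases (kb). In batch A Sox2-positive libraries Lamb3 was highest, at 44.8 ± 5.90 CPM per kb (SD, n = 6), and its range lay apart from that of Itga6, next at 22.5 ± 2.56. Col17a1 (20.9), Itgb4 (14.9), Frem2 (11.6) and Lama5 (9.42) followed, each overlapping its neighbour. Plec (5.45) lay apart from Lama5 and overlapped Lama3 (3.34), which overlapped Dst (1.94). In batch B Sox2-positive libraries Lamb3 led (30.8 ± 10.9, n = 7), then Col17a1 (25.7), Itga6 (23.4), Lama5 (21.5), Itgb4 (15.9), Frem2 (11.5), Lama3 (9.93) and Plec (7.13). Neighbours in that order overlapped, and Dst (2.88) lay apart at the end. In Sox2-negative libraries Itga6 was highest in both batches, at 13.3 ± 3.48 (n = 6) and 10.4 ± 4.36 CPM per kb (n = 4), with Plec next (7.00 and 5.97), and Lama3 lowest (0.383 and 0.257). With the longest annotated transcript as length, Itga6 (49.1 CPM per kb) ranked above Lamb3 (41.8) in batch B Sox2-positive libraries, since its longest transcript has 4.31 kb of the 9.03 kb of joined exons. The joined length of Dst, 41.16 kb over 20 transcripts, is longer than any single transcript (at most 23.28 kb), so its level per kb depends on the length taken: 1.94 or 3.42 CPM per kb in batch A Sox2-positive libraries.

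The laminin alpha and beta chains were then compared within each chain type, as a share of the summed CPM per kb. In Sox2-positive cells Lama5 took 42.6% ± 7.84 of the alpha chains in batch A (SD, n = 6) and 61.0% ± 4.43 in batch B (n = 7), against 13.8% ± 3.25 and 18.1% ± 4.06 in Sox2-negative cells. Lama3 took 15.1% ± 4.44 and 28.1% ± 3.17 in Sox2-positive cells, against 1.33% ± 1.47 and 1.38% ± 2.23 in Sox2-negative cells. In the Sox2-negative libraries Lama4, the alpha chain of vessels and mesenchyme, had the largest mean share, at 63.6% ± 10.3 and 47.9% ± 8.11. Lama1 took 11.5% ± 5.5 and 19.3% ± 10.3 there, and Lama2 9.68% ± 8.57 and 13.3% ± 5.29. Lama4 was 26.2% ± 5.35 of the alpha chains in batch A Sox2-positive libraries and 1.57% ± 1.19 in those of batch B. Lamb3 was 64.9% ± 3.21 and 57.1% ± 7.92 of the beta chains in Sox2-positive cells, and 5.02% ± 4.59 and 7.64% ± 2.41 in Sox2-negative cells, where Lamb1 led. The alpha 3 share was at most 32.1% in any Sox2-positive library, and the beta 3 share was larger in all of them (45% to 69.7%).

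**Figure D3:**
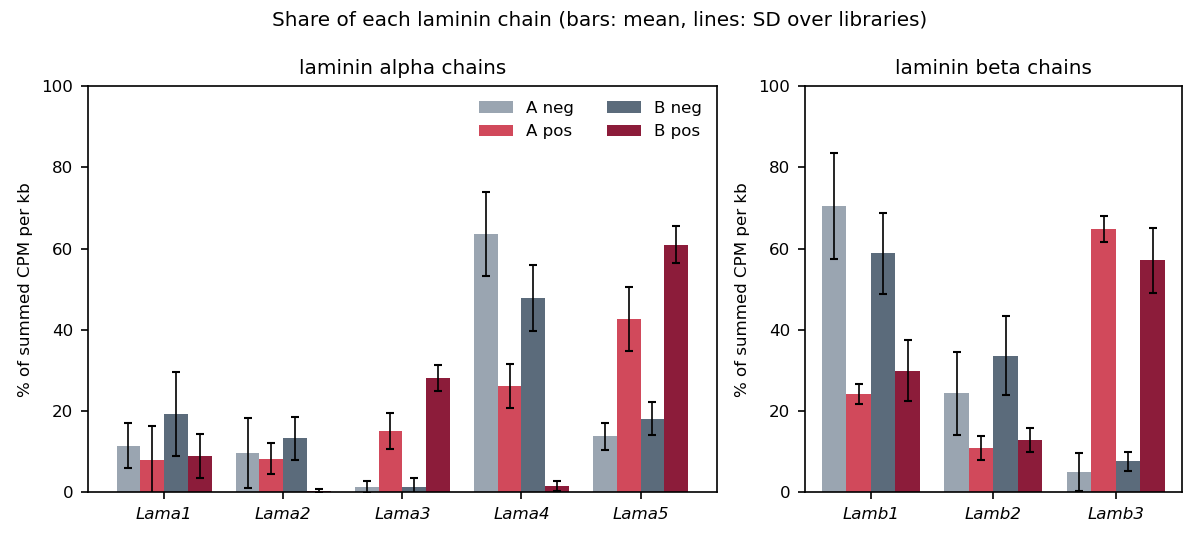
Share of each laminin alpha or beta chain in the summed CPM per kb of its chain type (vertical axis, percent), as mean and SD over the libraries of batch A and B Sox2-negative (A neg, B neg) and Sox2-positive (A pos, B pos) cells. Lama5 and Lamb3 led in Sox2-positive cells and Lama4 and Lamb1 in Sox2-negative cells.

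Other genes of the basement membrane, in lists made with earlier results of these data known, did not share one direction. The counts that follow stand beside 24.9% of all genes tested called higher and 32.5% called lower, and nothing is read from them as particular to a list. Of 7 further laminin chains, 1 was called higher and 5 lower in Sox2-positive cells over both batches, with a median log2 fold change of -0.66. They ran from Lamc1, the gamma chain of most laminins (0.47, SE 0.18, edgeR adjusted p 0.0269), to Lamc3, the gamma 3 chain (-3.55, SE 0.69, edgeR adjusted p 8.59e-05). Of 12 genes of the collagen IV, nidogen and proteoglycan sheet, 10 were tested, 2 were higher and 5 lower (median -0.89). Col18a1, which encodes a collagen of epithelial and vessel basement membranes, had 347 to 536 CPM (batch A) and 215 to 281 CPM (batch B) in Sox2-positive libraries and 51.3 to 117 CPM in all Sox2-negative ones (log2 difference 2.18, SE 0.12, edgeR adjusted p 2.41e-14). Col15a1, of muscle and vessel basement membranes, was lowest (-3.60, SE 0.37, adjusted p 4.18e-09).

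Of 5 genes of the anchoring fibril and the Fraser complex, 4 were tested, 2 were called higher and 1 lower. Col7a1, the collagen of anchoring fibrils below hemidesmosomes, was higher (1.44, SE 0.32, edgeR adjusted p 0.000383). Of the partners of Frem2, Frem1, made in mesenchyme, was lower (-0.98, SE 0.18, adjusted p 3.61e-05), and Fras1 was not called (-0.39, SE 0.25, adjusted p 0.185). Of 8 other matrix receptors and partners, 6 were higher and 1 lower (median 1.15), from Fermt1, the kindlin of epithelia (2.98, SE 0.44, adjusted p 2.05e-06), to Itgav, the integrin alpha V subunit (-1.76, SE 0.18, adjusted p 4.34e-09). Of 4 other plakins, Eppk1 (epiplakin) was higher (3.85, SE 0.45, adjusted p 4.84e-08) and Macf1, a close relative of Dst, lower (-1.56, SE 0.18, adjusted p 5.09e-08). Of the other 2, 1 was called higher and 1 was not called. For reference, 8 of 8 epithelial markers were called higher (median 3.85) and 8 of 8 mesenchymal markers lower (median -4.33). Set beside these, Itgb4, Col17a1, Lama3 and Lamb3 had log2 fold changes within the range of the epithelial markers (2.11 to 7.42), and Itga6, Dst, Plec, Lama5 and Frem2 lay below it.

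**Figure D4:**
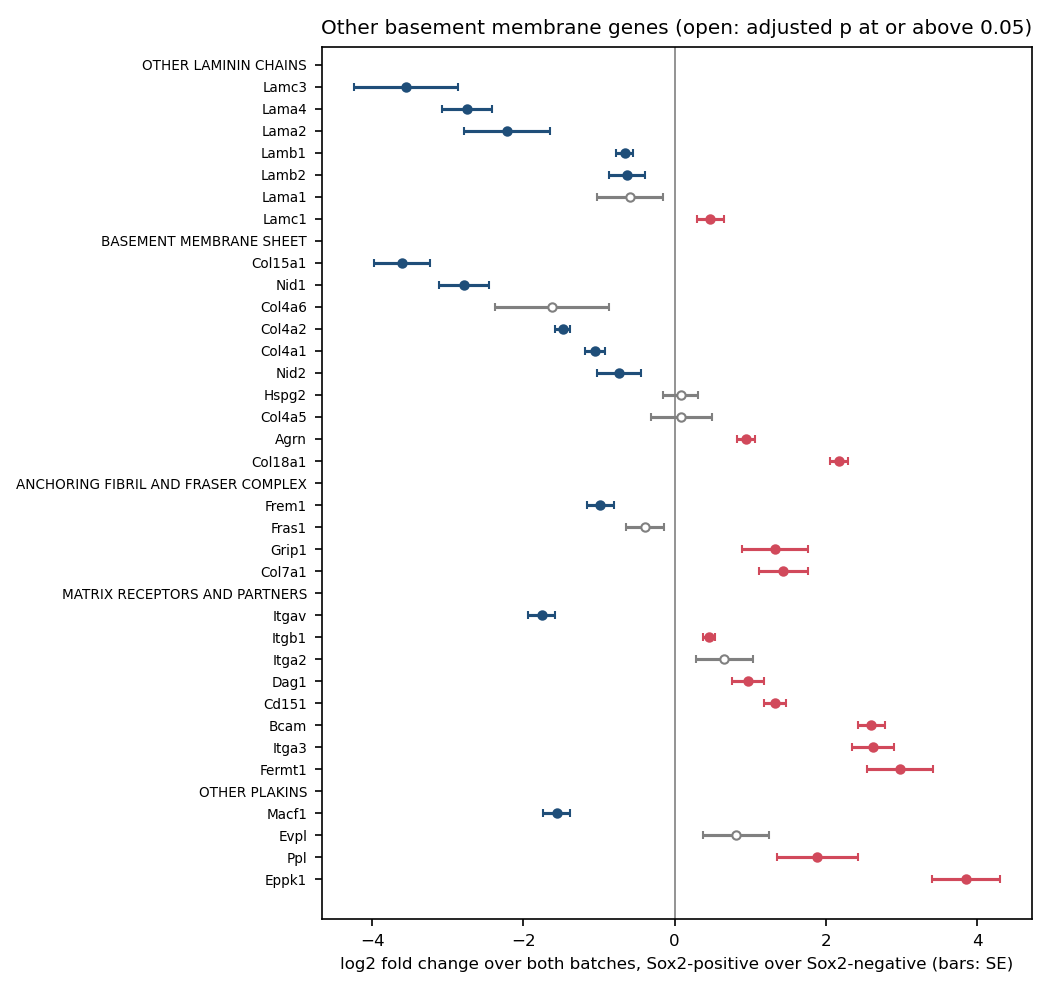
Log2 fold change over both batches (horizontal axis, Sox2-positive over Sox2-negative cells, with SE) of the tested genes of 5 lists. Red points were called higher, blue points lower and open points not called; each list holds genes on both sides of 0.

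The genes whose profile over the 23 libraries was most like each of the 9 were found by the root mean square difference of log2 CPM, each gene centred on its own mean, among 11084 genes with a mean of at least 10 CPM. A smaller value is a closer profile. For Lamb3 these were Epcam (0.62), Tbx1 (0.67) and Cdh6 (0.68), for Col17a1 Cxadr (0.76), Slc39a8 (0.83) and Plek2 (0.85), and for Lama3 Me3 (1.17), Tmprss11d (1.19) and Ntf5 (1.20). For Itgb4 they were Xrcc5 (0.49), Bex4 (0.49) and Gcat (0.51), for Lama5 Id4 (0.43), Fabp5 (0.47) and Ptprf (0.47), and for Frem2 Kctd1 (0.41), Ccdc47 (0.44) and 6330403K07Rik (0.49). For Itga6 they were Ruvbl1 (0.28), Siva1 (0.31) and Atox1 (0.31), for Dst Gmpr (0.38), Tbc1d14 (0.38) and Smad1 (0.40), and for Plec 0610012G03Rik (0.24), Rps2 (0.24) and Nisch (0.25). Values are smaller for genes that vary less, so they rank genes for 1 member and not members against each other. Apart from Plec, exons shared with other annotated genes concerned antisense transcripts: 1037 and 456 bases of Dst, 197 of Lama3 and 537 of Itgb4. The strand setting of the counting is not given in the sources used here, so reads of these stretches cannot be assigned to one strand.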

How the data were processed

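Smart-seq2 libraries with Tn5 tagmentation were made, per the labels' protocols. The authors deposited 1 table of estimated counts per gene, with 1 column per library and no scaling to a common depth, made with Salmon per the submitters' processing notes. Per the submitters' processing notes, FastQC, Trimmomatic, Salmon and the build mm10 were used; versions, annotation and the step from transcripts to genes are not given in the sources used here. Values were rounded to whole numbers for the edgeR and DESeq2 fits; levels, shares, ratios and profile distances used them unrounded. Symbols and positions came from GENCODE M21 by identifier without version (54094 of 54347 matched, 99.5%).

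Tests used edgeR 4.0.16 in R 4.3.3 (TMM, filterByExpr with a minimum count of 10, quasi-likelihood F test, Benjamini-Hochberg over all genes tested, threshold 0.05): the populations with batch as a covariate, within each batch, the interaction (batch B minus batch A), and the batches within each population, from a model of 4 group means over 23 libraries. Standard errors were the absolute log2 fold change over the square root of F. Ratios within a library had 1 count added and were tested by two-sided exact permutation in SciPy 1.17.1, with smallest possible p of 0.00216 (batch A) and 0.00606 (batch B). On simulated counts for 17190 genes, the fit over both batches called 62% of genes changed 2-fold and 70% of those changed 4-fold. The interaction fit called 13% and 38%. False calls numbered 9 and 3. Only 100 genes were changed at each fold, whereas the fits of the real data called 57.5% and 7.04% of genes. The adjustment depends on that share, so these percentages are not the power of the tests reported here. Alternatives were DESeq2 1.42.0, RLE and total-count scaling, no filter, a replicate block, each library left out, and batch B libraries 1 and 2 left out, the last for ratios chosen after seeing the data.

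Members and lists were chosen with earlier results of these data known. Named genes were the 9 members, Col7a1, Fras1, Frem1, the highest and lowest called gene of each list, and the 3 nearest profiles per member; Lama4, Lamb1, Lamc1 and Parp10 were named after their values were seen. One gene of the laminin list is not reported here. The floor of 3 counts covers counting error alone, as PCR copies were not told apart. No 2 libraries of a group looked like 1 library deposited again (lowest chi-square 5.46 per degree of freedom). The series' ATAC-seq was not analysed here.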

Additional observations from a re-analysis of the deposited data

Results flagged for a closer look

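Among 36 groups of libraries, 1 per gene and group, 3 held a library far from the rest; chance alone gives about 1 in 20. Batch A Sox2-positive library 4 had 164 CPM of Col17a1, where the next had 128. Batch B Sox2-positive library 7, the shallowest of all, had 165 CPM of Plec, where the next had 135. Batch B Sox2-negative library 3 had 9.33 CPM of Lama3 where the next had 1.23 CPM. The same library was the highest of its group for Col17a1 (52.4 CPM), Itgb4 (32.6 CPM) and Plec (127 CPM). It was the lowest for Lamb3 (11.7 CPM), Lama5 (25.8 CPM) and Dst (65.3 CPM).

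By the interaction test, which called 7.04% of all genes tested, 2 of the 9 genes had a population difference of unequal size in the batches. That of Lama5 was larger in batch B (log2 interaction 1.45). That of Frem2 was smaller in batch B (log2 interaction -1.18), with Sox2-positive medians of 155 and 149 CPM and Sox2-negative medians of 26.4 and 63.9 CPM in batches A and B; its call was lost in 17 of 23 fits that left out 1 library, with the replicate block (edgeR adjusted p 0.135) and without batch B libraries 1 and 2 (adjusted p 0.19).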

How the results depend on the processing

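The count of 8 genes higher over both batches was the same under DESeq2, RLE and total-count scaling, no filter, the replicate block, without batch B libraries 1 and 2, and in 23 fits that each left out 1 library; so was that of 7 in batch A (12 fits), while the 8 of batch B ran from 8 to 9 over 11 such fits, was 9 with total-count scaling (Plec added) and 7 under DESeq2, which gave no adjusted p for Lama3. Total-count scaling moved the median of all genes over both batches from -0.12 to 0.00, and that within Sox2-negative cells from 0.00 to -0.15. It also moved the split of genes higher and lower in batch B within Sox2-negative cells from 1005 and 919 to 661 and 1388, and within Sox2-positive cells from 833 and 952 to 666 and 1214. For the interaction, the 1 gene called higher became 2 under DESeq2 and with no filter, and ran from 1 to 2 with 1 library left out; the 1 called lower became 2 with no filter, 0 with the replicate block and 0 without batch B libraries 1 and 2, and ran from 0 to 2. Within Sox2-positive cells the 1 gene called higher became 2 with no filter (1 to 2 with 1 library left out). Within Sox2-negative cells, without batch B libraries 1 and 2, 1 gene was called higher, from 2, and 1 lower, from 0 (0 to 1 with 1 library left out). Of all 17190 genes tested, 4623 were called higher over both batches under DESeq2 and 4966 with total-count scaling, from 4288. For the interaction, DESeq2 called 804 of all genes higher and 871 lower, from 484 and 726. With no filter it called 563 higher and 787 lower, of 37531 genes.

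The ratio differences kept their sign under pseudocounts of 0.5 and 5; that of Col17a1 to Itgb4 in batch B, not called, was -0.36 without batch B libraries 1 and 2. Exchanging labels only within same-numbered pairs (replicate block) cannot go below p 0.0312 in batch A or 0.125 in batch B, and no ratio then passed: Itgb4 to Itga6 differed by 2.16 and 0.90, and Lama5 to Lama3 by -2.85 and -3.74 in batches A and B (exact permutation, adjusted p 0.156 to 0.312). Without batch B libraries 1 and 2 they were 0.89 and -2.94 in batch B. With 1 library left out, Itgb4 to Itga6 ran from 1.85 to 2.48 and from 0.91 to 1.34, Lama5 to Lama3 from -3.35 to -2.11 and from -5.03 to -3.23, Lamb3 to Lama3 from 0.16 to 1.68 and from -4.22 to -2.20, and Plec to Dst from -1.27 to -0.70 and from -0.58 to -0.32.

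Deviations of same-numbered libraries of the 2 populations had correlations from -0.022 to 0.044 over genes. The largest, 0.041 and 0.044, were those of batch B numbers 1 and 2. Such values cannot tell whether same-numbered libraries share mice or handling, which the labels do not give. With the block, 8812 genes were called over both batches, from 9879, and 536 for the interaction, from 1210. Without batch B libraries 1 and 2 the interaction gave 481 genes, and the batches differed for 1159 genes (from 1785) within Sox2-positive and 754 (from 1924) within Sox2-negative cells, with fewer libraries tested. The differences between batches have no fit with a block, because each pair lies within 1 batch. The cause of these changes was not tested. Some Sox2-negative libraries held at most 3 counts of Lama3, and some of batch A at most 3 of Col17a1, so these levels are imprecise.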
